A study of Mus musculus with 2 samples.

Results

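The MHC class I genes and the genes that supply their peptides were read by 57 probes of the array, printed in 93 of 43379 non-control spots. They were chosen by name: the H2-K, H2-D1, H2-L, H2-Q, H2-T, H2-M and H2-Bl heavy chains, the light chain B2m, Tap1, Tap2, Tapbp, Tapbpl, Erap1, Pdia3, Nlrc5 and the immunoproteasome subunits Psmb8, Psmb9 and Psmb10. The names gave 37 genes of 27343 on the array, and no probe carried the name H2-D1. The rule itself uses names only and no measured value.

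The study compared leukemia-initiating cells, the fraction of an acute myeloid leukemia that can start the disease anew, with and without Jam3, which encodes a junctional adhesion molecule. Both groups were MLL-AF9-YFP leukemias of female mice, a model driven by a fusion oncogene, with a yellow fluorescent protein (YFP) as marker. YFP+ Mac-1+ c-Kit+ cells were sorted from bone marrow. One group was Jam3-null and the other WT, with 1 array each. Each array is labeled as cells from 3 mice. The strain, the age, the H2 haplotype, the way Jam3 was deleted and how RNA of the mice was combined are not given in the sources used here.

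MHC class I molecules carry short peptides from inside a cell to its surface, where CD8 T cells and natural killer cells read them. Proteasomes cut proteins, the TAP transporter moves the fragments into the endoplasmic reticulum, Erap1 trims them, and a loading complex fits them into a heavy chain paired with beta-2-microglobulin. Interferon raises most of these genes together, and the transactivator Nlrc5 acts at heavy-chain promoters.

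With 1 array per group no test across samples was possible, and all values describe these 2 arrays. Signals are the scanner software's processed intensities, and log2 differences are Jam3-null minus WT after each array was set to its 75th percentile (667.8 and 713.9). The error given is the SD of the log2 difference from the software's error model, 0.20 for most genes, and it covers the measurement of a spot and not the spread between mice. Spots well above background made up 55.0% of the Jam3-null array and 61.8% of the WT array. Neither of the 2 Jam3 probes reached that limit in any sample (28.1 in Jam3-null cells and 5.09 in WT cells, and 5.40 and 3.23), so the arrays do not check the genotype labels. All 9 neutrophil markers on the array were at least 2-fold higher in Jam3-null cells, against 10.3% of all genes measured on both arrays. Their median log2 difference was 4.66, led by Fcnb at 6.63, Itgb2l at 5.64 and Camp at 4.92 (summed signal 1002060 against 175555). All 4 mast cell and basophil markers were lower (median -2.43, led by Cpa3 at -3.60, Prg2 at -2.59 and Hdc at -2.26, summed signal 5456 against 30928). Of the sort's markers, Itgam, which encodes Mac-1, differed by 3.71 and Kit by 0.09. In sorted bulk cells, fewer cells of a type and less RNA per cell cannot be told apart. The part of these shifts in the class I values was not tested.

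Several probes read near-identical copies. Among the 57 probes, 8 pairs naming different genes aligned without gaps over at least 30 bases at 80% identity or more, and 13 probes were in such a pair. The stretches below are 30-base windows of the array's own probe sequences, shown because a signal given to 1 heavy chain can include its neighbors, with the mismatched bases of each pair in capitals. The H2-L and H2-Q2 probes differed at 2 of 49 aligned bases, and both mismatches fall in the window.
H2-L probe: ctcttacatggtgatcGttgctgttctggG
H2-Q2 probe: ctcttacatggtgatcAttgctgttctggT
The H2-Q7 and H2-T23 probes differed at 5 of 53 aligned bases, 4 of them in the window.
H2-Q7 probe: ggcttttgtgatgaaTaggaggTgaAacaC
H2-T23 probe: ggcttttgtgatgaaGaggaggAgaCacaT
An H2-K1 probe designed on the cDNA M69070 and the brightest H2-K1 probe differed at 4 of 52 bases although both carry the same gene name.
H2-K1 probe on M69070: tgaatAtGaccttgattgttatcatTGtga
H2-K1 brightest probe: tgaatGtAaccttgattgttatcatCTtga
Another window shows 1 of the 2 H2-Q10 probes that were higher in Jam3-null cells, beside the H2-Q7 probe. These differed at 8 of 46 aligned bases.
H2-Q10 probe: AAagctCtggtggTAtttgtgatgaaGagA
H2-Q7 probe: GGagctGtggtggCTtttgtgatgaaTagG
Heavy-chain values are therefore readings of probes, and the share of each copy in a signal was not tested. The H2 alleles of these mice are not given, and a probe can read alleles unequally; the part of alleles in the values was not tested either, which matters most for genes with 1 probe.

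Of the 37 genes, 25 were well above background on both arrays, 2 on the WT array only and 10 on neither. Among the 25, 17 were at least 2-fold lower in Jam3-null cells (68%), against 8.59% of all 14371 genes measured on both arrays, and 1 was at least 2-fold higher, against 10.3%. The 17 include H2-Q10 at its brightest probe, although its 5 probes did not move together. The median log2 difference was -1.24, against -0.07 for all genes measured. Lower values by any amount were found for 22 of 25, against 55.2% of all genes. The 1650 other genes within 1 log2 unit of the members' median signal were at least 2-fold lower in 6.73% and had a median of -0.21. Many members, among them the brighter B2m and H2-K1 and the dimmer Tap1 and H2-M10.1, lie outside that window and are not matched by it. Past 3-fold, 7 of 25 were lower, against 2.93% of all genes, and 1 was higher, against 4.94%. Past 1.5-fold, 21 were lower, against 20.3%, and 1 was higher, against 18.4%.

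**Figure D1:**
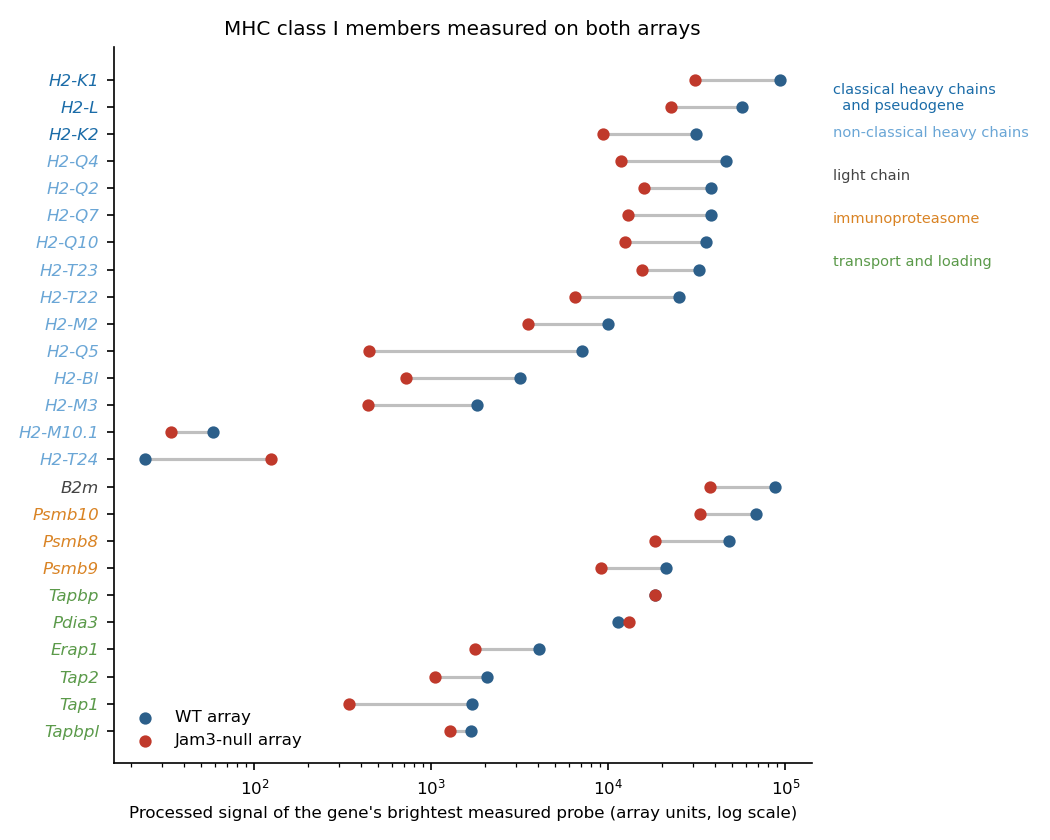
Processed signal (array units, log scale) of the brightest measured probe of each of the 25 genes seen on both arrays, with the Jam3-null array in red, the WT array in blue and the gene names colored by role. The WT point lies to the right for most genes, while H2-T24, Tapbp and Pdia3 have the Jam3-null point at the right, and the heavy chains, B2m and immunoproteasome subunits fill the bright end.

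The classical heavy chains were lower in Jam3-null cells by every probe. H2-K1, which presents peptides to CD8 T cells, had a signal of 30966 in Jam3-null cells and 93338 in WT cells at its brightest probe, a log2 difference of -1.50 (2.82-fold lower). Its 4 probes ranged from -1.50 to -1.99. H2-L, another classical heavy chain by its probe name, had signals of 22505 and 56690 and a difference of -1.24 (2.36-fold lower), with -1.42 at its other probe. Whether the H2-L probes also read H2-D1, a name that no probe carried, was not tested. H2-K2, a pseudogene with a non-coding RefSeq record (NR_004446), had 9308 and 31261, a difference of -1.65.

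Repeat spots, 10 each for 4 probes, give the precision of the signal within an array. The H2-K1 probe (mm9 chr17:34133055-34133114, minus strand) had a lowest, median and highest spot of 29776, 31050 and 31716 in Jam3-null cells (9 usable spots) and of 88406, 93638 and 96239 in WT cells. The B2m probe (mm9 chr2:121978525-121978581) had 14006, 14527 and 15245 against 33765, 36148 and 37258. The H2-Q7 probe had 11477, 13031 and 13635 against 34064, 38131 and 40435. For H2-M2 the spots ran from 3354 to 3667 in Jam3-null cells and from 9389 to 10399 in WT cells. For each of these 4 probes, all Jam3-null spots were lower than all WT spots. The same held for 41.7% of the 127 probes with repeat spots, and 34.6% had all spots higher, so such separation was common on these arrays. These are repeat readings of 1 RNA per group and say nothing of the spread between mice.

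**Figure D2:**
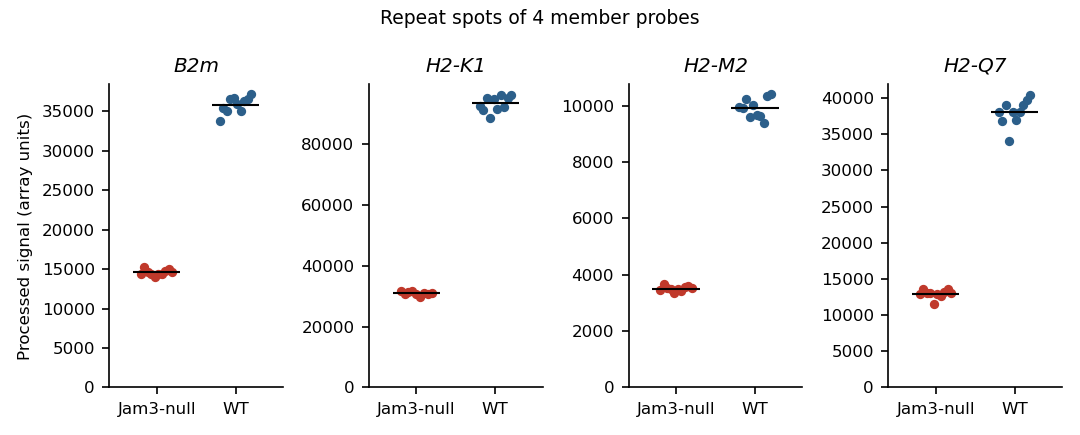
Processed signal (array units, axes from 0) of each usable repeat spot of the B2m, H2-K1, H2-M2 and H2-Q7 probes on the Jam3-null and WT arrays, with a line at the mean. Horizontal position within a group has no meaning; the 2 clouds are separate in each panel.

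Of the non-classical heavy chains, which have few alleles and more restricted expression or ligands than the classical ones, 12 of 23 were measured on both arrays. The median of these 12 was -1.44. Of the 12, 9 were at least 2-fold lower, against 8.59% of all genes, and 1 was higher, against 10.3%. The 9 include H2-Q10, by its brightest probe. H2-Q5 showed the widest gap, with a signal of 447 in Jam3-null cells and 7108 in WT cells, a log2 difference of -3.90 (14.9-fold lower), and it was the 27th lowest of the 14371 genes. It has 1 probe, designed on the non-coding record NR_051981. H2-Q4 had 11855 and 46235, a difference of -1.87. H2-Q7, which encodes the Qa-2 antigen, had 12942 and 38044, a difference of -1.46. H2-Q2 had 15906 and 38187, a difference of -1.17 (-0.95 with cyclic loess, inside 2-fold), with -1.50 at its other probe. All 4 of these Q-region genes were thus lower by every measured probe.

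The genes of the T region moved in both directions. H2-T22, a ligand of gamma-delta T cells, had signals of 6458 and 25014, a difference of -1.86, and its 3 probes ranged from -1.38 to -2.08. H2-Bl had 722 and 3182, a difference of -2.04 (4.12-fold lower), while its 2 other probes were well above background on the WT array only. H2-T23 encodes Qa-1, which holds leader peptides of other class I chains and is read by the CD94/NKG2A receptor. Its signals were 15464 and 32513, a difference of -0.98 that lay just inside the 2-fold limit and passed it with spike-in scaling (-1.08). H2-T24 was the exception, with 125 in Jam3-null cells and 24.2 in WT cells, a difference of 2.46 (SD 0.29). Its WT signal was near background, the difference was 1.20 with normexp, a model-based background correction, and its other probe passed the background limit in Jam3-null cells alone (signal 69.0).

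In the M region, H2-M3, which presents N-formylated peptides, had signals of 437 and 1822, a difference of -1.96 (3.90-fold lower). Its other probe, at 22.4 and 132, was well above background on the WT array only. H2-M2 had 3511 and 9918, a difference of -1.40. H2-M10.1 was dim, with 33.7 and 58.5 and a difference of -0.70 (SD 0.33), and -0.15 with normexp. H2-M10.2 was well above background on the WT array only, with signals of 21.5 and 21.5, and has no fold. The genes below that limit on both arrays were H2-M1, H2-M9, H2-M11, H2-M10.3, H2-M10.4, H2-M10.5, H2-M10.6, H2-Q1, H2-T3 and H2-T18.

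The 5 probes named H2-Q10, a gene known for a secreted class I chain made by the liver, did not move together. The brightest had 12355 and 35389, a difference of -1.42. The next, with 2153 and 7238, gave -1.65, and a dim one with 98.1 and 537 gave -2.36 (SD 0.23; -1.74 with normexp). The other 2 were higher in Jam3-null cells: 1310 against 315, a difference of 2.15, and 542 against 68.7, a difference of 3.08 (2.28 with normexp). The latter is the H2-Q10 probe whose window is printed above, at mm9 chr17:35610468-35610527. The gene's value was -1.42 by its brightest probe, -0.04 by the mean of its measured probes and 3.08 by its dimmest, so no direction is given for H2-Q10. Without it, the measured probes of every other gene with several probes shared 1 sign, except for Tapbp, whose probes lay at 0.11 and -0.10.

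**Figure D3:**
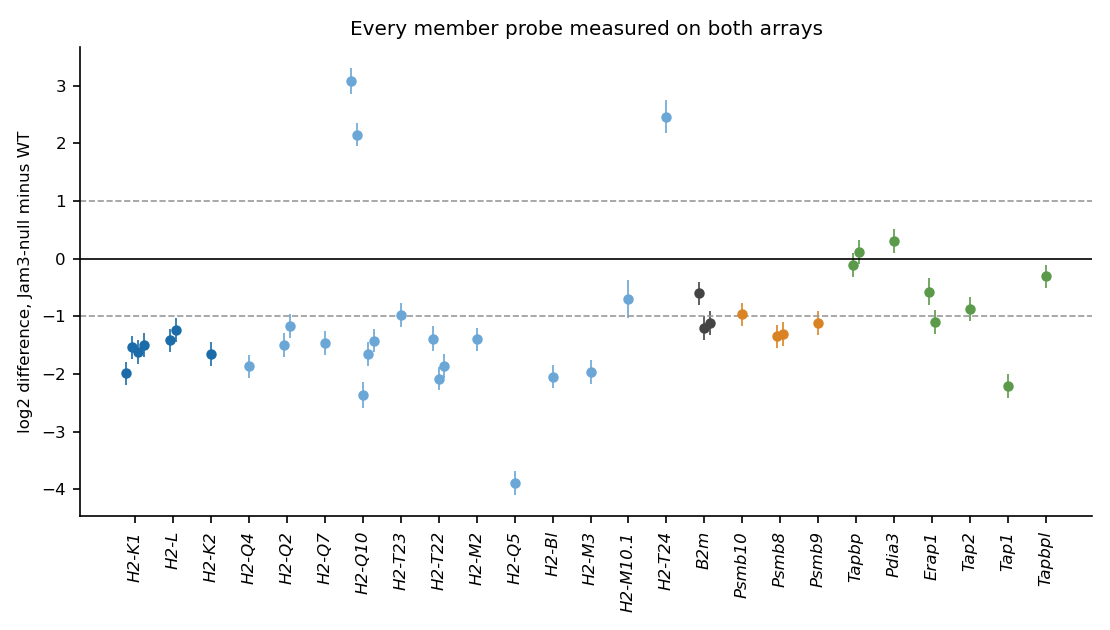
log2 difference (Jam3-null minus WT) of each of the 41 probes measured on both arrays, by gene and colored by role as above, with bars for the error-model SD and dashed lines at 2-fold. Most heavy-chain probes lie between -1 and -2.4, with H2-Q5 far below at -3.90 and 2 H2-Q10 probes and 1 H2-T24 probe above 2.

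Counted by probe, 21 of 26 heavy-chain probes measured on both arrays were at least 2-fold lower and 3 passed 2-fold the other way, with a median of -1.50. Over all genes, counted by gene and not by probe, the shares were 8.59% lower and 10.3% higher. Class I sequences that do not carry a chosen name were read by 10 further probes, of which 5 were measured on both arrays. H2-D4 was lower by 1.75 in log2 (3967 against 14259), and the cDNA HQ258995, which shares at least 25 bases with an H2-Q10 probe, by 1.54. The H2-T-ps probe had -1.02 and LOC676708 had -1.85. The fifth, AK046930, had 0.20 (SD 0.27).

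B2m, the light chain that every class I heavy chain needs to reach the surface, was lower too. Its brightest probe had 37532 and 86938, a difference of -1.12 (2.17-fold lower). The repeat probe gave -1.20 and a dim probe -0.60. B2m stayed at least 2-fold lower in 6 of 11 alternative settings, and its value was -0.86 with cyclic loess, a scaling that can vary with brightness, and -0.97 by the mean of its probes.

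The immunoproteasome subunits replace the constitutive catalytic subunits and change which peptides are cut. Psmb8 had 18259 and 48205, a difference of -1.30 (2.47-fold lower), with -1.35 at its other probe. Psmb9 had 9083 and 21049, a difference of -1.12, which fell inside the 2-fold limit with cyclic loess (-0.92) and in the authors' value table (-0.996). Psmb10 had 32818 and 68524, a difference of -0.97, within 2-fold, or -1.07 with spike-in scaling. Of the 8 constitutive proteasome subunits, activators and the assembly factor Pomp, none was past 2-fold in either direction and the median was -0.45. The largest differences there were Psmb7 at -0.68, Pomp at -0.57 and Psmb5 at -0.56; Psmb7 and Psmb5 are catalytic subunits that the immunoproteasome exchanges.

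Among the transport and loading genes, 2 of 6 were at least 2-fold lower, against 8.59% of all genes, and the median was -0.59. None was at least 2-fold higher, against 10.3% of all genes. Tap1, 1 subunit of the peptide transporter, had signals of 343 and 1692, a difference of -2.21 (4.62-fold lower). Its partner Tap2 had 1055 and 2060, a difference of -0.87, within 2-fold. Erap1, the trimming peptidase, had 1773 and 4045, a difference of -1.09, with -0.57 at a dim second probe and -0.97 with cyclic loess. The 3 loading factors did not pass 2-fold: Tapbp, encoding tapasin, had 18430 and 18221 (0.11), the tapasin-like Tapbpl had 1270 and 1682 (-0.31), and the disulfide isomerase Pdia3 had 13140 and 11367 (0.31). In the list of genes for endoplasmic reticulum folding or for peptide trimming, the median was -0.41 and none was at least 2-fold higher. At least 2-fold lower was 1 of 13, against 8.59% of all genes. That gene was Calr, encoding calreticulin of the loading complex, with 21118 and 47863 (-1.08); Npepps had 0.97 and Blmh -0.89. The counts turned round with quantile normalization, cyclic loess and the authors' value table, where 0 were lower and 1 was higher.

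Nlrc5, the transactivator, was well above background on the WT array only, with 12.8 and 60.4. Taking the dimmest reliably read probe of the Jam3-null array as its upper limit, it was at least 2.18-fold lower in those cells. With normexp that bound was 1.31-fold, under the 2-fold limit. Of the RFX, CREB, NF-Y, USF and NF-kB factors that bind class I promoters, 12 of 13 were measured and none was past 2-fold, with a median of 0.07 that changed sign over the alternative scalings (from -0.03 to 0.24). Rfxank had 0.94, Rfx5 -0.72 and Rfxap 0.65. The class II transactivator Ciita was well above background on the WT array only.

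Of 13 genes of interferon signaling, all measured, 3 were at least 2-fold higher in Jam3-null cells, against 10.3% of all genes, and none lower, with a median of 0.63. With normexp, median or spike-in scaling 2 passed. The receptor genes Ifnar1, Ifngr1 and Ifnar2 had -0.30, -0.12 and -0.08. Irf7 had 188 and 47.9, a difference of 2.07 (1.28 with normexp). Irf9, a subunit of the interferon-activated factor ISGF3, had 1272 and 583, a difference of 1.22. Stat2 had 1501 and 789, a difference of 1.02, or 0.95 with normexp.

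**Figure D4:**
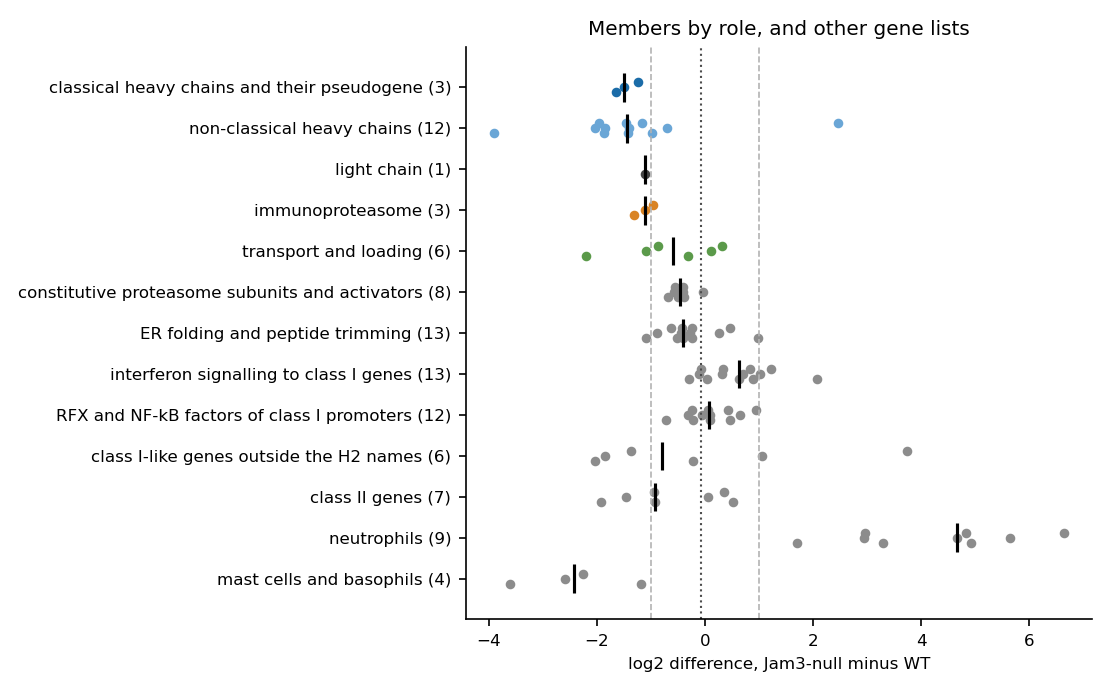
log2 difference (Jam3-null minus WT) of each measured gene, by role of the class I genes (colored) and for other lists (gray, number of genes in parentheses), with a black bar at each median, a dotted line at the median of all genes (-0.07) and dashed lines at 2-fold. The heavy-chain medians lie near -1.5, transport and loading near -0.6, interferon signaling at 0.63 and the neutrophil markers at 4.66.

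Genes with a class I fold that lie outside the H2 names went both ways. Of 6 measured on both arrays, 3 were at least 2-fold lower, against 8.59% of all genes, and 2 higher, against 10.3%. With normexp 2 were lower, against 6.53%, and 1 was higher, against 7.3%. Cd1d1 was among the lower, with 1504 and 4148 (-1.37, or -1.34 with normexp). Fcgrt was among the higher (1.04, or 0.87 with normexp). The NKG2D ligand H60a had 50.2 and 220 (-2.04; -1.26 with normexp), and Raet1e, another ligand of that receptor, had 44.8 and 174 (-1.86; -0.98 with normexp). Azgp1 was higher, with 256 and 20.6, a difference of 3.74 (2.06 with normexp). For class II, 2 of 7 measured genes were at least 2-fold lower, against 8.59% of all genes: H2-Oa at -1.92 and H2-Ab1 at -1.46, with H2-DMa at -0.95. Another 3 were higher: Cd74 at 0.52, H2-Eb1 at 0.36 and H2-DMb1 at 0.06. The class II median was -0.93, or -0.29 with normexp.

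Markers of other cells were dim or split. Of 5 T cell markers 3 were measured, with summed signals of 152 and 235; Cd8a was below the background limit on both arrays, Cd3d passed the limit in Jam3-null cells alone (log2 bound 2.30), and Lck had -1.03 (-0.52 with normexp), Cd3g -0.17 and Cd3e -0.11. Of 5 natural killer markers Nkg7 alone was measured on both (15160 and 4526, 1.84), Klrb1c passed it in Jam3-null cells alone (log2 bound 1.88), and Ncr1, Gzma and Prf1 were below the limit on both. Of the B cell markers, Cd79b had -0.44, and Cd79a and Pax5 were below the limit on both. Of 9 dendritic cell and class II markers 7 were measured with a median of -0.36 (-0.09 with normexp). The largest differences were H2-Ab1 at -1.46, Itgax at -1.19 (-0.65 with normexp) and the dim H2-Aa at -0.93 (-0.29 with normexp). Of the 7, 3 were higher: Xcr1 at 0.53, Cd74 at 0.52 and H2-Eb1 at 0.36. Siglech and Clec9a were below the limit on both. Of 6 monocyte markers 3 were at least 2-fold higher (among them Cd14 at 3.01 and Csf1r at 1.88), against 10.3% of all genes. The summed signals of the 6 were 176622 and 239209. Measured erythroid markers were Hba-a1 at 1.73 and Klf1 at -0.23, the megakaryocyte marker measured on both arrays was Gp9 at 2.08, and endothelial or stromal ones were Pecam1 at -1.69 and Cxcl12 at -1.08 (-0.53 with normexp). The megakaryocyte markers Pf4 and Itga2b were seen on the WT array only, with log2 bounds of -1.16 and -1.91. The erythroid marker Alas2 passed the limit in Jam3-null cells alone (log2 bound 3.23). The part of other cells in the class I values was not tested.

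Most of these genes share a region of chromosome 17. Between the Tapbp and H2-M2 probes (mm9 chr17:34063096-37618439), 20 of the measured genes were members, with a median of -1.41. Of these 20, 15 were at least 2-fold lower (75%), against 8.59% of all genes, and 1 was higher (5%), against 10.3%. The 15 include H2-Q10, by its brightest probe. The other 109 genes measured in the same stretch had 11 past 2-fold below (10.1%) and 19 past 2-fold above (17.4%), with a median of -0.03. On the rest of the chromosome the median was -0.03, over 610 genes. The 5 measured members outside the region, B2m, Psmb10, Erap1, Tapbpl and Pdia3, had a median of -0.97. Of the other genes inside the region, 101 have no H2 name. Of these, 8 were at least 2-fold lower (7.92%, against 8.59% of all genes) and 19 higher (18.8%, against 10.3%). The 8 include Gm11127 (-1.32), which lies between H2-T22 and H2-Bl. The 109 include the class I probe H2-T-ps (-1.02), so they are not free of class I sequence.

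**Figure D5:**
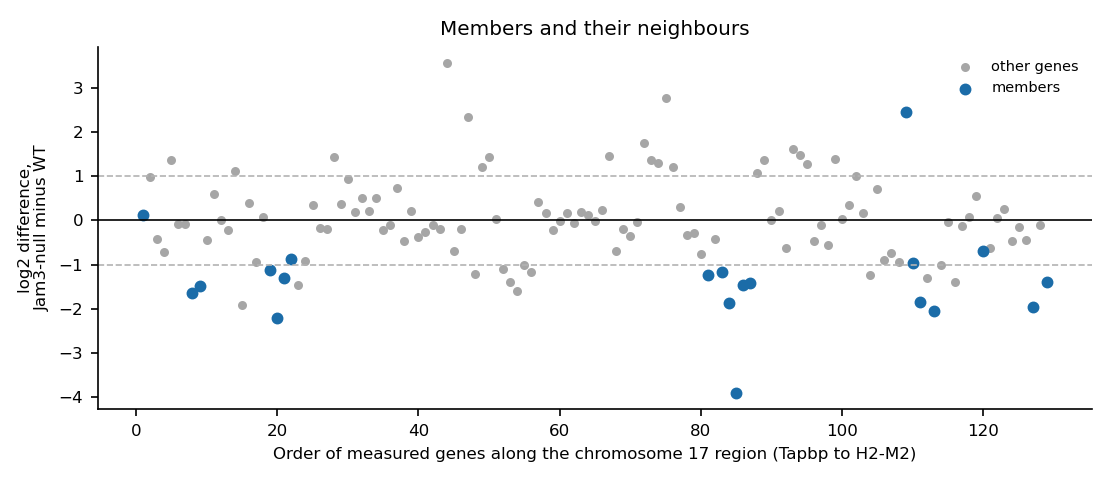
log2 difference (Jam3-null minus WT) of the 129 genes measured in the chromosome 17 region, in their order along the chromosome, members in blue and other genes in gray, with dashed lines at 2-fold. Blue points form groups near -1 to -2 among gray points scattered on both sides of 0, and H2-T24 is the blue point above 2.

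Promoter sequence is shown for heavy chains that moved together, for H2-Q10, whose probes disagreed, and for B2m. RefSeq promoters (GRCm38.p6, from 250 bases before to 50 after each start) were found for 27 of the 37 genes, 18 of them measured on both arrays. Capitals mark, on either strand, a kB site (GGGATTNCC), the class I form of the interferon element (TTTCNNTTC), its long form (TTTCNNTTT) and the CCAAT box (CCAAT, read as ATTGG here). The stretches, 5′ to 3′ on the gene's strand, end before the annotated start.
H2-K1, chr17:34000348-34000469, minus strand: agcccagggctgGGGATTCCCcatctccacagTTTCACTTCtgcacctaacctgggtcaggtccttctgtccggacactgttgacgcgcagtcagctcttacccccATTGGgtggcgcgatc
H2-Q4, chr17:35379432-35379561, plus strand: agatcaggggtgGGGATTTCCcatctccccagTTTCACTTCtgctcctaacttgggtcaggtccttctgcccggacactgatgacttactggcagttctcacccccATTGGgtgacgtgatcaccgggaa
H2-Q7, chr17:35439010-35439139, plus strand: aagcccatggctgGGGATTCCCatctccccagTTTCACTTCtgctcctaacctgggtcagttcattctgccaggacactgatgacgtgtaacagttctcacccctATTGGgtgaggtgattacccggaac
H2-Q10, chr17:35469902-35470031, plus strand: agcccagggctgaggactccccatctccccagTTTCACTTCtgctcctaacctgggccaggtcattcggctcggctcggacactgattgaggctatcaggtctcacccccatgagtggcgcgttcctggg
B2m, chr2:122147531-122147668, plus strand: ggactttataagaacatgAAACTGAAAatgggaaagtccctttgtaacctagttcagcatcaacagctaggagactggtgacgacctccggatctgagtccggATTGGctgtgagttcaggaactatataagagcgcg

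Over 300-base windows, the kB letters were found in 3 of the 18 measured members with a promoter, H2-K1, H2-Q4 and H2-Q7, and in 0.938% of all 32851 promoters. The class I form of the interferon element was found in 6 (H2-K1, H2-M2, H2-M3, H2-Q4, H2-Q7 and H2-Q10), against 7.52% of all promoters, and its long form in 4 (B2m, Erap1, H2-T22 and H2-T23), against 10.6%. Both forms share their first 8 letters but cannot start at the same base. The CCAAT box was found in 14 of 18, against 37.4% of all promoters. The H2-Q10 window holds neither the kB letters nor CCAAT, and its stretch matched that of H2-K1 at 106 of 119 aligned bases. A match is a description of these letters and not a measured binding site.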

How the data were processed

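Total RNA was labeled with Cy3 and read on 1-color arrays, 1 per genotype. The spot intensities were deposited as made by Agilent Feature Extraction 10.7.3.1, background-subtracted within each array and on a linear scale, per the file headers (the submitters' processing notes name version 10.7). The authors' value table gives log2 values with a median of 5.66 in both columns. How it was normalized is not stated in those sources. The sorted values of its 2 columns differed by at most 0.00038, as quantile normalization would give. It served as an alternative and lay close to the quantile setting (median of the members -1.08 and -1.05).

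Outlier spots were left out (151 and 163), and no non-control spot was saturated. Log2 processed signals, minus the array's 75th percentile, were averaged per probe, and a gene took its brightest probe. Genes entered the comparison if their probe passed the software's background limit on both arrays; a gene seen on 1 array has a bound where its difference allows one. The number of arrays limits the precision, and no test was made. Coordinates of probes are those of the files (mm9); RefSeq tables (GRCm38.p6) gave current names and promoters, and exons were not looked up. Probes were aligned without gaps in all pairs. The gene step was tested on simulated data. Every member was named by its status, and of each other list the 3 measured genes with the largest absolute difference; some marker genes are not reported here. The members and lists were chosen with earlier results of these data known. Alternatives covered background correction (normexp, offset 50), scaling (quantile, cyclic loess, median, 8 E1A spike-in probes), the value table, dim-probe filters, the probe rule, outlier spots and thresholds of 1.5-fold and 3-fold. R 4.3.3, limma 3.58.1, Python 3.11.15, numpy 2.4.6 and pandas 2.3.3 were used.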

Additional observations from a re-analysis of the deposited data

How the results depend on the processing

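No paired analysis was possible because each genotype has 1 array, and for the same reason no replicate could be left out. The count of members at least 2-fold lower (17) ran from 13 with cyclic loess to 19 with spike-in scaling or with no filter on dim probes, and was 21 at 1.5-fold and 7 at 3-fold. The count at least 2-fold higher (1) was 2 with no filter, 0 with the stricter filter and 2 with the dimmest of a gene's measured probes, an alternative chosen after seeing the data. The median of the members (-1.24) was -1.0 with cyclic loess, where the median of all genes moved from -0.07 to 0.06; with spike-in scaling these were -1.34 and -0.18. H2-Q10 changed sign, to 3.08, with the dimmest probe. Of 273 gene values under alternatives, 250 stayed within their error-model SD, and 23 of 25 genes kept their sign wherever 1 of 11 settings gave a value; H2-Q10 and Tapbp did not. Under all of these, 12 genes were at least 2-fold lower. The cause of these shifts was not tested. With normexp, the genes that moved past their error-model SD were H2-M10.1 at -0.15, H2-T24 at 1.20 and Tap1 at -1.92. H2-M10.1 was dim on both arrays and H2-T24 on the WT array. Over 6 background and scaling alternatives the median of the interferon list ran from 0.53 to 0.81 with 2 to 4 genes at least 2-fold higher, and that of the constitutive proteasome list from -0.55 to -0.26 with 0 past 2-fold in either direction. The RFX and NF-kB list changed the sign of its median (from -0.03 to 0.24).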
